A study of Mus musculus with 8 samples.

Results

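Corticosteroid receptors are steroid-activated transcription factors, and the genes described here are the pair of receptors for these hormones, the enzyme that makes active hormone inside cells, and 5 genes that glucocorticoids or mineralocorticoids are known to induce. They were taken by symbol from the deposited expression table, and all 8 (Nr3c1, Nr3c2, Hsd11b1, Sgk1, Fkbp5, Tsc22d3, Zbtb16 and Lcn2) were among its 55679 genes. The samples were left ventricles of male wild-type C57BL/6J mice that had carried a subcutaneous osmotic mini-pump for 7 days. The pump delivered saline in 4 control mice (labelled WT_C) and angiotensin II (ANG II) at a pressor dose of 1500 ng/kg/min in 4 mice of the ANG II group (labelled WT_A). No transgene, deletion or cell sort was involved, the ages of the mice were not given, and each library came from RNA of the whole ventricle, so that fewer cells of a type and less RNA per cell cannot be told apart.

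ANG II raises blood pressure and makes the adrenal cortex release aldosterone. Aldosterone acts through the mineralocorticoid receptor (Nr3c2), and corticosterone, the main glucocorticoid of the mouse, binds both that receptor and the glucocorticoid receptor (Nr3c1). Both receptors wait in the cytoplasm with heat shock proteins and immunophilins, move to the nucleus with bound hormone and bind the same DNA element. In the heart both are found in cardiomyocytes, fibroblasts, vessel cells and macrophages, and the mineralocorticoid receptor is known for its part in cardiac fibrosis.

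The libraries held 14455654 to 16564828 fragments, as recovered from the steps of the FPKM values, a unit that divides the fragments of a gene by its transcript length and by the depth of its library. Cardiomyocyte markers were high in every library, with a summed level of the 7 genes of 41297 to 42229 FPKM in control and 30316 to 33244 in ANG II, and mitochondrially encoded genes held 26.3% to 27.0% of fragments in control against 19.2% to 21.8% in ANG II. A gene was called where limma's adjusted p (Benjamini-Hochberg over the 19364 genes whose mean reached 0.1 FPKM) was under 0.05 and the absolute log2 fold change on the log2(FPKM + 1) scale was above 0.5. By this rule 14.0% of all genes tested were called higher in ANG II and 1.41% lower, and the values of the groups did not overlap for 33.7% of them. The median log2 fold change over all genes tested was 0.15 and became 0.0040 when libraries were scaled by the median of ratios, which changed the calls from 2708 higher and 273 lower to 1670 and 804, and 1413 and 986 after quantile normalization.

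Fkbp5 and Lcn2 rose with ANG II, and the other 6 genes were not called. Nr3c2 was lower in all 4 ANG II libraries than in any control library, past the adjusted p threshold but just short of the fold threshold. Nr3c1, Hsd11b1, Sgk1, Tsc22d3 and Zbtb16 had overlapping groups. In all, 2 of 8 genes were called higher and 0 lower, 3 of 8 had groups that did not overlap, and their median log2 fold change was -0.02. Over all genes tested 14.0% were called higher, 1.41% were called lower and 33.7% did not overlap, and the median was 0.15. The 5 genes with overlapping groups gave limma adjusted p-values between 0.382 (Sgk1) and 0.979 (Hsd11b1).

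**Figure D1:**
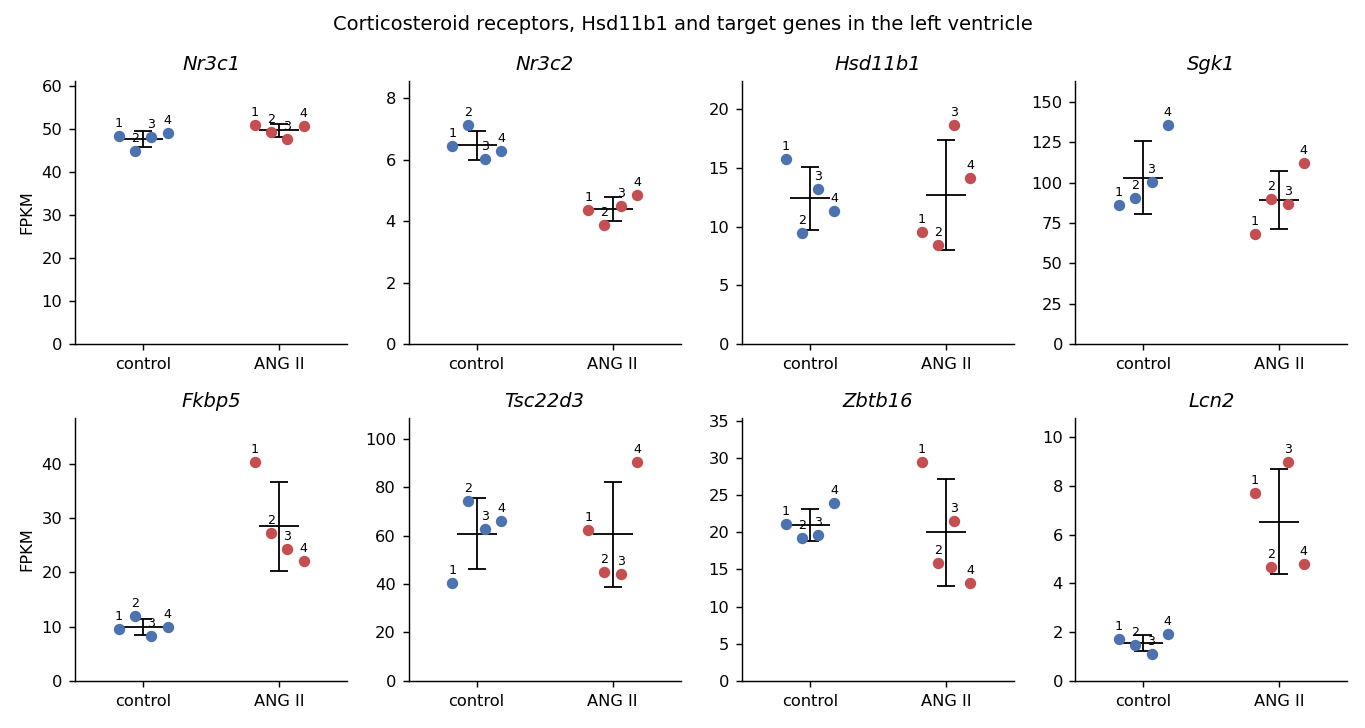
FPKM of each of the 8 genes in the 4 control (blue) and 4 ANG II (red) libraries. Numbers are replicate numbers, long bars are means and error bars are SD (n = 4), and each vertical axis starts at 0. The ANG II points of Fkbp5 (22 to 40.4) and Lcn2 (4.67 to 9.0) lie above every control point, those of Nr3c2 (3.88 to 4.84) lie below, and the other 5 genes overlap.

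Of the receptors, Nr3c1 was the more abundant per length. Nr3c1, which encodes the glucocorticoid receptor (chr18:39410545-39519421, minus strand, GRCm38), was at 48.3, 44.9, 48.2 and 49.1 FPKM in control and at 50.9, 49.4, 47.7 and 50.6 FPKM in ANG II. The groups overlapped, and the 8 values lay within a narrow band, with a coefficient of variation of 3.89% in control and 2.92% in ANG II. The log2 fold change was 0.06 ± 0.05 (SE), with a 95% interval from -0.05 to 0.17 and an adjusted p of 0.387 by limma. The sign turned under median-of-ratios scaling (-0.17, limma adjusted p = 0.0376), quantile normalization (-0.11) and scaling without mitochondrial and the 10 most abundant genes (-0.09), and it was not called under any of them.

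Nr3c2, which encodes the mineralocorticoid receptor (chr8:76899442-77245012, plus strand, GRCm38), was at 6.44, 7.13, 6.03 and 6.27 FPKM in control and at 4.36, 3.88, 4.49 and 4.84 FPKM in ANG II. The lowest control library was above the highest ANG II library. The means were 6.47 ± 0.471 and 4.39 ± 0.397 FPKM (SD, n = 4 each), a ratio of 0.679, and the depth behind them was 265 to 296 fragments per control library and 176 to 220 per ANG II library. Nr3c2 changed by -0.47 ± 0.09 (SE) on the log2(FPKM + 1) scale, with a 95% interval from -0.67 to -0.27 and a limma adjusted p of 0.00305. An adjusted p under 0.05 was found for 4.91% of all genes tested in the lower direction and for 28.4% in the higher direction. Set against the median gene the difference was -0.62, and it passed the fold threshold under median-of-ratios scaling (-0.66) and quantile normalization (-0.78). Of the exon length of Nr3c2, 3.82% lies under a gene on the opposite strand, whose reads cannot be told apart without strand. The summed level of the cardiomyocyte markers, given above, was also lower in every ANG II library. Of the 7 markers 2 were called lower, Myh6 (-0.55) and Tnni3 (-0.58), and neither was called after quantile normalization (-0.10 and -0.37). The part of cardiomyocytes in the lower Nr3c2 level was not tested.

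The ratio of Nr3c1 to Nr3c2 within a library does not depend on how libraries are scaled. It was 7.50, 6.30, 8.0 and 7.82 in control and 11.7, 12.7, 10.6 and 10.4 in ANG II. Every ANG II ratio was above every control ratio. The means were 7.41 ± 0.764 and 11.4 ± 1.05 (SD, n = 4 each), a 1.54-fold difference of the geometric means, with p = 0.0286 in a two-sided exact permutation test, which is the smallest p that 4 against 4 libraries allow. FPKM divides by transcript length, here the mean over annotated transcripts, and dividing by the longest transcript of each gene instead gave ratios of 6.34 and 9.73.

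**Figure D2:**
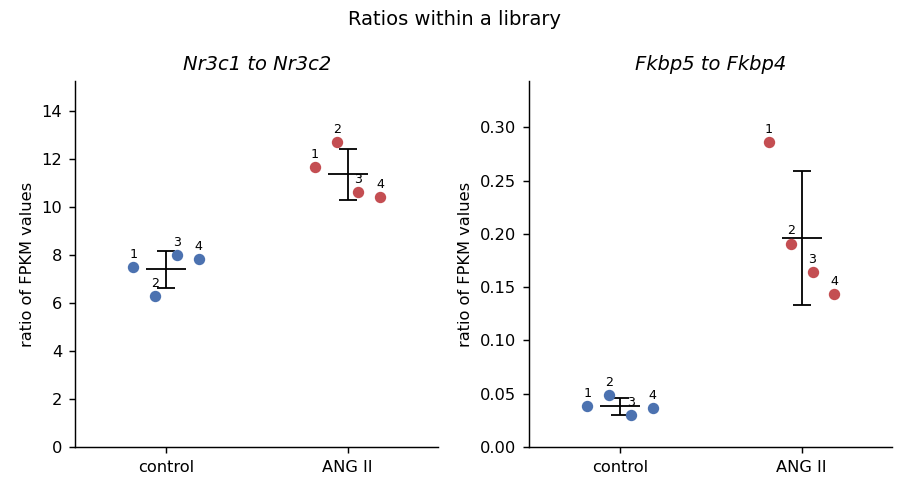
Ratio of the FPKM values of 2 genes within each library, for Nr3c1 over Nr3c2 (left) and Fkbp5 over Fkbp4 (right), in 4 control (blue) and 4 ANG II (red) libraries. Numbers are replicate numbers, long bars are means and error bars are SD; in both panels every ANG II point lies above every control point.

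The selectivity of the mineralocorticoid receptor for aldosterone rests in kidney on Hsd11b2, which inactivates corticosterone, whereas Hsd11b1 regenerates it from its inactive form. Hsd11b2 was at 0 to 0.150 FPKM in control and 0.0680 to 0.179 FPKM in ANG II and was below the expression filter. Hsd11b1 (chr1:193221634-193264075, minus strand, GRCm38) was at 15.7, 9.46, 13.2 and 11.3 FPKM in control and at 9.56, 8.44, 18.7 and 14.2 FPKM in ANG II. The groups overlapped almost fully, and the highest and the lowest of the 8 values were both ANG II libraries. Its log2 fold change was -0.01 ± 0.23 (SE), and its 95% interval from -0.52 to 0.50 holds changes of either sign. H6pd, which supplies the cofactor for Hsd11b1 in the endoplasmic reticulum, was at 13.1 to 16.3 FPKM in control and 20.4 to 22.4 FPKM in ANG II. Its groups did not overlap, and the log2 fold change was 0.50 ± 0.08 (SE), at an adjusted p of 9.76e-04 by limma but just short of the fold threshold, which it passed with a pseudocount of 0.1, with voom (0.52) and without control replicates 2 (0.53) or 3 (0.54) or ANG II replicates 3 (0.52) or 4 (0.50). It was 0.28 under median-of-ratios scaling (limma adjusted p = 0.0300) and 0.26 after quantile normalization (0.0417).

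Sgk1 encodes a kinase that aldosterone and glucocorticoids induce and that keeps the epithelial sodium channel at the cell surface. Of the 13 windows that RefSeq (GRCm38.p6) gave for 6 of the 8 genes, each from 250 bases before to 50 bases after a transcript start, 6 belonged to Sgk1. The glucocorticoid response element was searched on both strands as its half-sites AGAACA and TGTTCT, 3 bases apart. The exact pair stood in 3 of all 32851 windows (0.00913%), and one of these was the Sgk1 window at chr10:21993640-21993939 (plus strand). It is shown because it is the only exact element in the windows of these genes, with half-sites in capitals.

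Sgk1: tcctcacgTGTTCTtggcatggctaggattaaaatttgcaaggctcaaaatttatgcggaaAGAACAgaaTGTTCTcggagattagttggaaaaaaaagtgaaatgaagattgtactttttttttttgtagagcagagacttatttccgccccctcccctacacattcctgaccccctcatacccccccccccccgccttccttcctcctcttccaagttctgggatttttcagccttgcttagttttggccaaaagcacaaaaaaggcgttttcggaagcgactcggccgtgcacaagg

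The pair spans bases 62 to 76 of the window (chr10:21993701-21993715) and ends 951 bases before the most downstream RefSeq start of Sgk1, and a further half-site lies nearer the 5′ end. Half-sites alone stood in 19.0% of all windows and in 4 of the 13, of Sgk1 and Tsc22d3. A match is a description of the letters and not a sign of binding. No window for Nr3c1 or Zbtb16 was printed or searched.

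Sgk1 (chr10:21882184-21999903, plus strand, GRCm38) itself was at 86.2, 90.4, 100.2 and 135.6 FPKM in control and at 68.0, 90.1, 86.6 and 111.9 FPKM in ANG II. Replicate 4 was the highest library in each group, and the groups overlapped. Sgk1 was not called, with a log2 fold change of -0.21 ± 0.17 (SE), a 95% interval from -0.58 to 0.17 and a limma adjusted p of 0.382. The interval excludes a rise of the size of the fold threshold.

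Fkbp5 encodes FKBP51, a co-chaperone that lowers the affinity of the glucocorticoid receptor for hormone and that the receptor itself induces. Fkbp5 (chr17:28399094-28517527, minus strand, GRCm38) was at 9.54, 12, 8.29 and 9.87 FPKM in control and at 40.4, 27.2, 24.3 and 22 FPKM in ANG II. The lowest ANG II library was above the highest control library, and ANG II replicate 1 stood above the other 3. The means were 9.92 ± 1.53 and 28.5 ± 8.24 FPKM (SD, n = 4 each), a ratio of 2.87. The log2 fold change was 1.41 ± 0.17 (SE) with a limma adjusted p of 2.61e-04, larger than that of 98.4% of all genes tested and 1.26 above their median. It was at least 1.17 in every alternative run, and without ANG II replicate 1 Fkbp5 was still called.

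The Fkbp5 window at the RefSeq start (chr17:28486100-28486399, minus strand) is shown beside that of Sgk1 because the gene that rose holds no half-site in it. Its GC content was 70.7%, against a median of 52.7% over all windows.

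Fkbp5: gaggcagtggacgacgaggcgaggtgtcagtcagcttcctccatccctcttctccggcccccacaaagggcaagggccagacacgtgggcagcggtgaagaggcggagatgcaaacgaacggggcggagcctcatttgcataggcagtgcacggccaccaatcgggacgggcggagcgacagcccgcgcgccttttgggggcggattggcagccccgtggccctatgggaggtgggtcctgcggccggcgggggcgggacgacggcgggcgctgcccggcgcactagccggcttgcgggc

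The closest approach to the full element in this window had 6 mismatches. These letters say nothing of elements elsewhere in the gene, which spans 15 annotated transcripts.

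FKBP52, the product of Fkbp4, is the related co-chaperone that competes with FKBP51 for the receptor complex and favours hormone binding and nuclear entry. Fkbp4 fell, from 251.3, 247.7, 279.5 and 270.6 FPKM in control to 141.3, 142.4, 147.9 and 153.2 FPKM in ANG II. The spread within each group was small against the gap between them, and the log2 fold change was -0.84 ± 0.05 (SE; limma adjusted p = 7.74e-06), at the 0.33 percentile of all genes tested. As a description chosen after the values were seen, the ratio of Fkbp5 to Fkbp4 was 0.0381 ± 0.0077 (SD, n = 4) among control and 0.196 ± 0.0629 (SD, n = 4) among ANG II libraries, a 5.05-fold difference of the geometric means. The highest ratio was 0.286, in ANG II replicate 1.

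Tsc22d3 encodes the glucocorticoid-induced leucine zipper GILZ, which restrains inflammatory transcription factors. Tsc22d3 (chrX:140539528-140600659, minus strand, GRCm38) was at 40.3, 74.4, 62.8 and 65.8 FPKM in control and at 62.2, 45.0, 44.0 and 90.5 FPKM in ANG II. The highest and the second lowest values were both ANG II libraries, and the lowest was control replicate 1. Limma gave a log2 fold change of -0.04 ± 0.24 (SE), with a 95% interval from -0.58 to 0.51.

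Zbtb16 encodes the zinc finger repressor PLZF, which glucocorticoids induce in many cell types. Zbtb16 (chr9:48654297-48836222, minus strand, GRCm38) was at 21.2, 19.2, 19.6 and 23.9 FPKM in control and at 29.5, 15.8, 21.5 and 13.2 FPKM in ANG II. The ANG II libraries lay on both sides of the control libraries, with a coefficient of variation of 36% against 10.2% in control. On the log2 scale the change was -0.12 ± 0.20 (SE), with a 95% interval from -0.58 to 0.33.

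Lcn2 encodes lipocalin 2, a secreted iron-siderophore carrier abundant in neutrophil granules that aldosterone induces in heart and vessel cells. Its RefSeq window (chr2:32387690-32387989, minus strand) is printed with the one match found to a C/EBP-like motif, TTGCNNAA, in capitals, a search added after the values were seen.

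Lcn2: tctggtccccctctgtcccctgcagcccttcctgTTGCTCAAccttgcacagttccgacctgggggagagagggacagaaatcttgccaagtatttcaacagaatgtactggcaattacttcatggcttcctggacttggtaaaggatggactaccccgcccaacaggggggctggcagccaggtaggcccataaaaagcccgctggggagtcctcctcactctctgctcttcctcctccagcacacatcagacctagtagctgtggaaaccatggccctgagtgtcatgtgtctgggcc

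The C/EBP-like motif stood in 10.8% of all windows, and GGAANNNCC, a core of NF-kB sites searched in the same way, stood in 18.5% of all windows and had no match here. The C/EBP-like motif also stood in the Nr3c2 window, at 2 places, and in 1 of the 6 Sgk1 windows. No glucocorticoid half-site was in the window, and the closest approach to the full element had 3 mismatches.

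Lcn2 (chr2:32384633-32388252, minus strand, GRCm38) was at 1.72, 1.48, 1.11 and 1.91 FPKM in control and at 7.69, 4.67, 9.0 and 4.8 FPKM in ANG II. The groups did not overlap, and ANG II replicates 1 and 3 were the highest. The means were 1.55 ± 0.344 and 6.54 ± 2.15 FPKM (SD, n = 4 each), a ratio of 4.21. The control values rest on 17 to 27 fragments per library and the ANG II values on 69 to 126. The log2 fold change was 1.53 ± 0.20 (SE; limma adjusted p = 3.44e-04), which the pseudocount of 1 FPKM understates at this level: it was 1.97 with a pseudocount of 0.1 and 2.02 with voom on recovered fragments.

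Slc22a17, a lipocalin 2 receptor, rose from 1.07 to 1.51 FPKM in control to between 1.99 and 2.46 in ANG II, by 0.52 ± 0.11 (SE) on the log2(FPKM + 1) scale (limma adjusted p = 0.00417). That call was lost under median-of-ratios scaling (0.38), without control replicate 4 (0.48) and, by a small margin, without ANG II replicate 4, as well as after quantile normalization (0.24) and scaling without mitochondrial and the 10 most abundant genes. Mmp9, the protease that lipocalin 2 binds, had overlapping groups (0.653 to 1.39 FPKM in control and 0.611 to 1.60 in ANG II).

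The summed level of the 10 neutrophil markers was 2.86 to 6.79 FPKM in control and 8.82 to 22.2 in ANG II. Of the 6 that could be tested, 4 were called higher, where 14.0% of all genes tested were. They were S100a9 (log2 fold change 1.49), Csf3r (1.17), S100a8 (1.15) and Retnlg (0.92). Among the ANG II libraries the neutrophil sum was lowest in replicate 1 (8.82) and highest in replicate 2 (22.2). Ly6g was listed at 0 in 6 libraries and at 0.107 and 0.0980 FPKM in the others, and Mpo was listed at 0 in 7 libraries. The 7 macrophage markers summed to 186 to 237 FPKM in control and 384 to 555 in ANG II, with 6 of 7 called higher. The 7 fibroblast markers summed to 398 to 577 FPKM in control and 2311 to 2734 in ANG II, and all 7 were called higher as deposited. Of the fibroblast markers, Pdgfra was not called under median-of-ratios scaling or after quantile normalization (0.45 each), nor Tcf21 after quantile normalization (0.44). The part of these cells in the levels of Lcn2 and Fkbp5 was not tested.

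**Figure D3:**
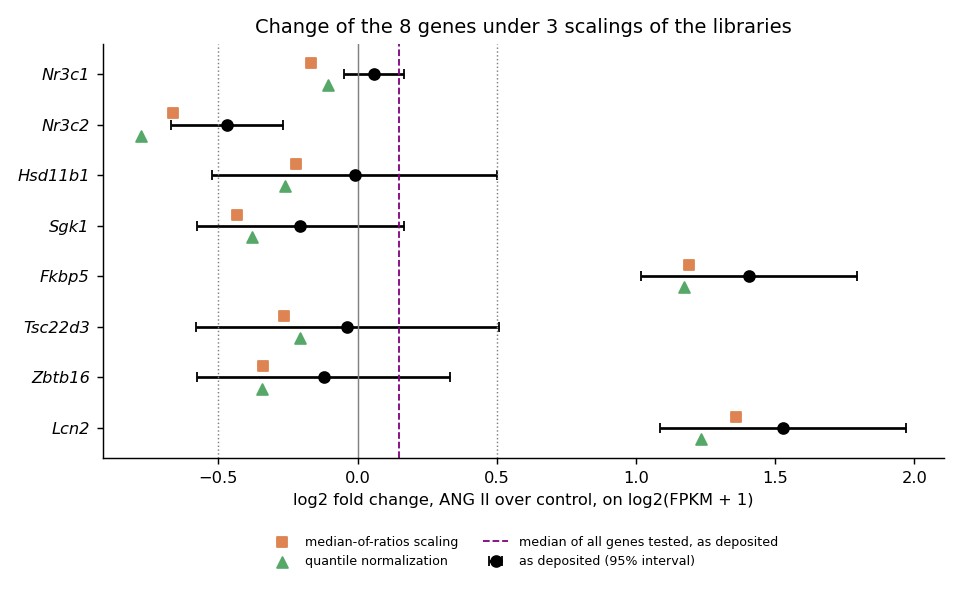
Log2 fold change (ANG II over control, on log2(FPKM + 1)) of the 8 genes. Black points are values as deposited with 95% intervals, orange squares median-of-ratios scaling and green triangles quantile normalization; dotted lines mark the fold threshold of 0.5 and the dashed line the median of all genes tested (0.15). Fkbp5 and Lcn2 lie past the threshold under all 3, and Nr3c2 passes it under both rescalings.

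In control hearts the order of levels per length was Sgk1 (mean 103 ± 22.5 FPKM), Tsc22d3 (60.8 ± 14.5), Nr3c1 (47.6 ± 1.86), Zbtb16 (21 ± 2.13), Hsd11b1 (12.4 ± 2.68), Fkbp5 (9.92 ± 1.53), Nr3c2 (6.47 ± 0.471) and Lcn2 (1.55 ± 0.344; SD, n = 4 each). The same order was found with the longest transcript as the length. The ranges of Tsc22d3 and Nr3c1 overlapped, as did those of Hsd11b1 and Fkbp5, so these neighbours did not differ beyond their spread. Sgk1 stood at the 96.4th percentile of all genes tested and Lcn2 at the 40.4th.

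For each gene, the genes with the nearest pattern were found by the root mean square difference of log2(FPKM + 1), centred on the control mean, over the 8 libraries and 12946 genes. Those of Nr3c2 were Tfpi (0.0432) and Isoc1 (0.0582), and those of Nr3c1 were Mrps23 (0.0310) and Tnks2 (0.0321). Those of Fkbp5 were Mest (0.139) and Loxl2 (0.144), and those of Lcn2 were Ly86 (0.147) and Mmp3 (0.161). Those of Sgk1 were Reep6 (0.0830) and Gm4956 (0.110), and those of Hsd11b1 were Gm22362 (0.122) and Gfra1 (0.171). Tsc22d3 was nearest to Irf2bp2 (0.191) and Prodh (0.207), and Zbtb16 to Siah1b (0.172) and Gm11816 (0.192).

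Of 26 other genes that glucocorticoids induce in heart or other tissues 25 could be tested. Of these 3 were called higher, 1 lower and 21 not called, where 14.0% of all genes tested were called higher and 1.41% lower, and their median log2 fold change was 0.08, against 0.15 for all genes tested. Anxa1, which encodes the anti-inflammatory annexin A1, rose from a range of 18.6 to 31.0 FPKM in control to one of 64.5 to 88.0 in ANG II (log2 fold change 1.53). Mt1, a metallothionein that binds zinc and copper, rose from 59.4 to 79.6 FPKM in control to between 131.7 and 171.1 in ANG II (1.09), and Mertk, a receptor for apoptotic cell uptake that was not called after quantile normalization (0.43), from 3.22 to 4.21 FPKM in control to between 6.28 and 8.59 in ANG II (0.74). Klf15, a cardiac repressor of hypertrophic gene expression, fell from 21.3 to 25.8 FPKM in control to between 13 and 18.5 in ANG II (log2 fold change -0.57), and it was not called without ANG II replicate 2 (-0.48). Lpin1 (-0.46) and Trim63 (-0.43), named after their values were seen, were lower without overlap but short of the fold threshold. Both were called lower under median-of-ratios scaling (-0.69 and -0.65), where the list had 3 genes called higher and 3 lower, as it did without mitochondrial and the 10 most abundant genes, and after quantile normalization, where it had 2 and 4. Mt2 was listed at 0 in all 8 libraries.

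Within the groups, many of these genes shared their extreme libraries, a pattern noticed after the values were seen. Control replicate 1 was the lowest control library for 16 of the 25 genes (64.0%), against 20.5% of all genes tested, and ANG II replicate 4 was the highest ANG II library for 13 of 25 (52.0%), against 27.4%. Of the 5 target genes, Sgk1 and Tsc22d3 followed both. Per1, a clock gene with a glucocorticoid response element, was at 4.70 FPKM in control replicate 1 against 12.2 to 14.5 in the other control libraries, and at 25.0 FPKM in ANG II replicate 4 against 8.33 to 11.7 in the other ANG II libraries. Ddit4, a stress-induced inhibitor of mTOR signalling, was at 28.5 FPKM in control replicate 1 against 63.6 to 76.3, and at 92.9 FPKM in ANG II replicate 4 against 30.8 to 43.4. Fkbp5, Zbtb16 and Lcn2 followed neither. The lowest control library was replicate 3 for Fkbp5 and Lcn2 and replicate 2 for Zbtb16. The highest ANG II library was replicate 1 for Fkbp5 and Zbtb16 and replicate 3 for Lcn2. The time of day at which tissue was taken was not given.

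**Figure D4:**
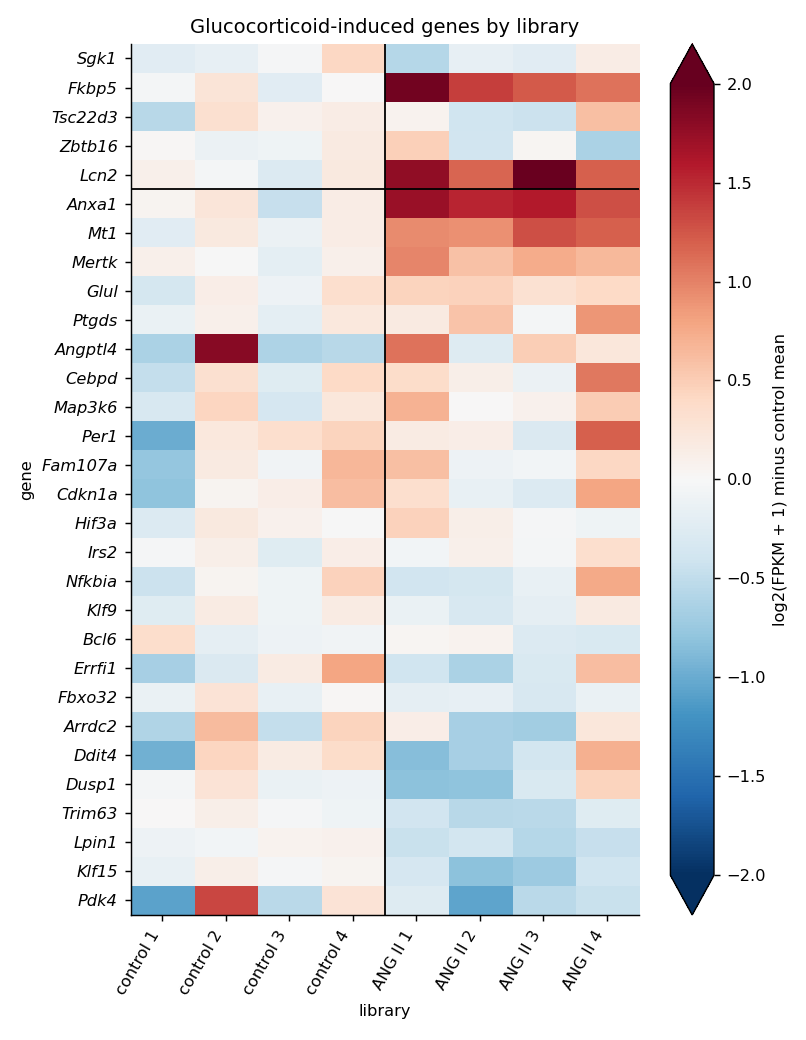
Heat map of log2(FPKM + 1) minus the control mean for the 5 target genes (above the horizontal line) and the 25 other glucocorticoid-induced genes tested (below, ordered by log2 fold change), with 1 column per library; colours are limited to 2 in either direction. Fkbp5, Lcn2, Anxa1, Mt1 and Mertk are higher in all 4 ANG II libraries than in every control library, while Per1 and Ddit4 are lowest in control replicate 1 and highest in ANG II replicate 4.

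Of the genes linked to the mineralocorticoid receptor, 12 of the 14 found could be tested, and 4 were called higher and 0 lower. Over all genes tested 14.0% were called higher and 1.41% lower. The median log2 fold change of the list was 0.17, close to the 0.15 of all genes tested. Among the genes called higher were Lgals3 (galectin 3, a matrix-promoting lectin of macrophages; log2 fold change 2.95), Ctgf (a matricellular growth factor; 1.96) and Edn1 (the vasoconstrictor endothelin 1; 0.66). Lgals3 was at 2.46 to 5.30 FPKM in control and 31.2 to 42.4 FPKM in ANG II. Of the exon length of Ctgf 23.2% lies under a gene on the opposite strand. The call of Edn1 was lost in 10 of 17 alternatives, including median-of-ratios scaling (0.51, limma adjusted p = 0.0819) and the fits without control replicates 2, 3 or 4 or ANG II replicates 2 or 3 (limma adjusted p = 0.0551 to 0.0682). Of the epithelial sodium channel, Scnn1a, the alpha subunit, was at 0.163 to 0.474 FPKM in control and 0.169 to 0.382 FPKM in ANG II and was not called, and the other subunits Scnn1b and Scnn1g were below the expression filter. The fibroblast and macrophage markers given above moved with the genes called, and their part in these values was not tested.

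Of 19 receptor chaperones and coregulators, 0 were called higher and 1 (Fkbp4) was called lower, with a median log2 fold change of 0.03. The shares over all genes tested were 14.0% higher and 1.41% lower, at a median of 0.15. Hsp90ab1, the constitutive heat shock protein 90 that holds both receptors, was at 1378 to 1911 FPKM in control and 1369 to 1510 in ANG II. Of the other steroid receptors, Esr1 was at 0.206 to 0.389 FPKM in control and 0.256 to 0.762 FPKM in ANG II and was not called, while Pgr and Esr2 were below the filter.

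Of the 15 genes of corticosteroid synthesis, metabolism and transport, 7 could be tested and 1 was called, higher, beside 14.0% of all genes tested. Star, which moves cholesterol into mitochondria, was at 1.42, 1.41, 1.39 and 1.31 FPKM in control and at 12.2, 14.7, 7.46 and 9.82 FPKM in ANG II. Every ANG II value was several times the highest control value, and the log2 fold change was 2.30 ± 0.17 (SE; limma adjusted p = 1.58e-05). Of the enzymes that turn cholesterol into corticosterone and aldosterone, Cyp21a1, Cyp11b1, Cyp11b2 and Hsd3b1 were listed at 0 in all 8 libraries, as were 27083 genes of the table, Mt2 among them, so that a listed 0 does not show lack of expression. Cyp11a1 was at 0 to 0.199 FPKM in control and 0 to 0.0762 in ANG II.

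**Figure D5:**
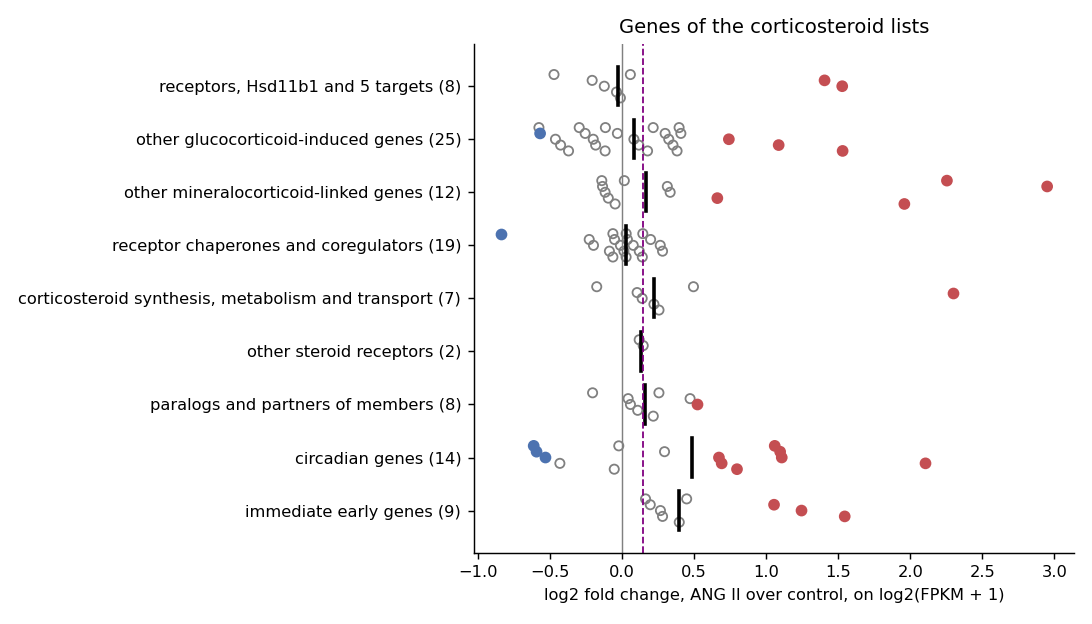
Log2 fold change (ANG II over control, on log2(FPKM + 1)) of each gene tested, by list, with the number of genes tested in brackets. Filled points were called (red higher, blue lower), open points were not, black bars are list medians and the dashed line is the median of all genes tested (0.15). Of the lists shown, all but the other steroid receptors hold called genes, and most points of the glucocorticoid-induced list are open.

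The paralogs and partners counted 9 genes, of which 8 were tested, 1 was called higher (Slc22a17) and 0 lower. Among all genes tested 14.0% were called higher and 1.41% lower. Fkbp1a (FKBP12), which binds the cardiac ryanodine receptor and was named after its values were seen, was higher without overlap but short of the fold threshold (log2 fold change 0.47), which it passed without ANG II replicate 4 (0.52), and Tsc22d1, Tsc22d2, Sgk3 and Zbtb32 had overlapping groups.

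Clock and early-response genes, which glucocorticoids and handling also move, were counted beside these lists. For comparison, 14.0% of all genes tested were called higher and 1.41% lower. Of 14 circadian genes 7 were called higher, led by Dbp (log2 fold change 2.11), Bhlhe41 (1.11) and Per2 (1.10), and 3 lower, namely Npas2 (-0.61), Cry1 (-0.59) and Arntl (-0.53). Nr1d2 and Tef, also among the genes higher, were not called under median-of-ratios scaling (0.45 and 0.47). The call of Cry1 was lost without control replicates 1 or 3 or ANG II replicates 1, 2 or 3 (limma adjusted p = 0.0531 to 0.0629), and that of Arntl without ANG II replicate 1 (adjusted p = 0.0561), ANG II replicate 2 (log2 fold change -0.44) or control replicate 4 (adjusted p = 0.0504). The summed level of the list was 185 to 196 FPKM in control and 225 to 292 in ANG II. Of 9 immediate early genes 3 were called higher (Junb 1.55, Ier3 1.25 and Fos 1.06) and 0 lower, of which Fos was not called after quantile normalization (0.79, limma adjusted p = 0.0651), with summed levels of 82.8 to 105 FPKM and 145 to 203 FPKM. The part of clock phase or handling in the Fkbp5 and Per1 values was not tested. The red cell and atrial sums did not overlap either. The 5 erythroid genes, all called higher, summed to 96.8 to 487 FPKM in control and 581 to 2083 in ANG II. The 3 atrial genes summed to 1.15 to 48.8 FPKM in control and 52.5 to 230 in ANG II. Of these 3 only 1 was called higher (Sln 1.69), and that call was lost in 8 of 17 alternatives. The 5 endothelial markers summed to 324 to 349 FPKM in control and 367 to 425 in ANG II, with 1 of 5 called higher (Pecam1 0.52, not called under median-of-ratios scaling, at 0.29). The sum of the T cell markers was 8.50 FPKM in control replicate 1, 2.21 to 3.93 in the other control libraries and 6.81 to 12.3 in ANG II, and 2 of 6 were called higher (Trac 1.03 and Cd4 0.71, the latter not called after quantile normalization, at 0.44). The smooth muscle sums overlapped, with 1 of 4 called higher (Cnn1 1.18), as did the adipocyte sums, with 0 of 4 called.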

How the data were processed

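Left ventricular RNA of 8 mice (4 control, 4 ANG II) was enriched with oligo(dT) beads and sequenced as paired reads. The deposited values are FPKM per gene, made by the authors with HISAT, Bowtie2 and RSEM named in the submitters' processing notes; versions, genome build, annotation and use of strand were not given in the sources used here. Positions and lengths came from GENCODE M21 (GRCm38), which held 55141 of the 55679 gene IDs. Nothing says that values were filtered. One protocol label speaks of cells of another kind, whereas tissue labels give left ventricle.

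The 8 genes and all gene lists were chosen with earlier results of these data known. FPKM values were tested on log2(FPKM + 1) with limma 3.58.1 (lmFit, eBayes with a variance trend; R 4.3.3), over genes whose mean reached 0.1 FPKM, with Benjamini-Hochberg adjustment over all genes tested; genes were called at an adjusted p under 0.05 and an absolute log2 fold change above 0.5. Besides the 8 genes, up to 3 called genes per list and direction with the largest change, direct partners, and the 2 nearest genes by pattern were named. The receptor ratio was tested by exact two-sided permutation over 70 allocations. Whole fragments were recovered by multiplying FPKM by the mean transcript length and dividing by the step of 1 fragment: 99.1% to 99.2% of values under 60 fragments came out whole (tolerance 0.05) for genes of 1 transcript and 97.1% to 97.7% for the others. Fragment totals of 14455654 to 16564828 set the counting precision. Promoter windows came from RefSeq (GRCm38.p6). The script for the fit was tested on simulated data. Alternatives were other pseudocounts, filters and scalings, limma without a variance trend, voom on recovered fragments, a replicate block and leaving out each library. The labels give each library as a separate sample, and p-values measure the spread between these libraries. Some genes of the lists are counted but not reported here by name.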

Additional observations from a re-analysis of the deposited data

How the results depend on the processing

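Fkbp5 and Lcn2 were called under every alternative run, and the count of genes called among the 8 was 2 or 3, the third being Nr3c2. Nr3c2 passed the fold threshold with a log2 fold change of -0.66 under median-of-ratios scaling, -0.78 after quantile normalization, -0.59 without mitochondrial and the 10 most abundant genes, -0.55 with a pseudocount of 0.1 and -0.56 with voom. Leaving out 1 library gave -0.51 (without ANG II replicate 4, called) to -0.42, and its adjusted p was at most 0.0170 in all of these. The 2981 genes called became 795 with a log2 fold change above 1 and 6447 with no fold threshold. Calls in the higher direction were 90.8% of all calls as deposited, 67.5% under median-of-ratios scaling, 58.9% after quantile normalization and 78.3% without mitochondrial and the most abundant genes.

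Replicate numbers did not pair the libraries, since deviations of same-numbered libraries correlated at -0.03 to 0.06. With the replicate block, 2968 genes were called, the same 2 of the 8 among them, and the receptor ratio kept its log2 difference of 0.62 with p = 0.125 in an exact sign-flip test, the smallest that 4 pairs allow. Depth limits Lcn2 most among the 8 genes, at 17 to 27 fragments per control library.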
